A study of Homo sapiens with 4 samples.

Results

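The SR splicing factors are RNA-binding proteins that join an RNA recognition motif to a domain rich in arginine and serine. The 10 genes described here are SRSF1, SRSF2, SRSF3, SRSF4, SRSF5, SRSF6, SRSF7, SRSF11 and the related transformer-2 genes TRA2A and TRA2B. They were chosen by symbol, and all 10 were found among the 56657 rows of the deposited gene table. RNA was sequenced from TE5, an established esophageal squamous cell carcinoma line, in 2 libraries with a control hairpin (shControl, genotype label WT) and 2 with hairpin RNA against NUP153 (shNUP153, labelled a NUP153 knockdown). Cells of both groups had been infected with lentivirus, selected with puromycin and then kept in growth medium for 7 days. All libraries come from 1 cell line, no label ties replicates to separate infections, and p-values therefore measure a spread that may be technical. Sample descriptions tag the knockdown libraries g1 and g2, and no source used here says what the tags mean.

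SR proteins bind enhancer sequences in exons and help recruit the U1 particle and the U2AF dimer to nearby splice sites. SRPK kinases phosphorylate their serine-arginine domains in the cytoplasm, the import receptor TNPO3 carries them into the nucleus, and CLK kinases release them from nuclear speckles to sites of transcription. Several of them, among them SRSF1, SRSF3 and SRSF7, shuttle to the cytoplasm and link spliced mRNA to the export receptor NXF1. Many SR genes also control themselves: excess protein promotes inclusion of a poison exon, whose premature stop codon sends the transcript to nonsense-mediated decay. NUP153, the hairpin's target, is a nucleoporin of the nuclear basket, the face of the pore that mRNA meets first. The comparison asks how its depletion changes the RNA level of each SR gene.

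The libraries held 22606593 to 27396268 counts. NUP153 stood at 148.9 and 141.6 CPM (library-size-scaled counts with TMM factors) with the control hairpin and at 67.9 and 81.9 CPM with the hairpin against it. Both knockdown libraries were below both controls (log2 fold change −0.96, SE 0.06, edgeR adjusted p = 1.051e-14). Of 5 squamous markers, KRT14 had 6 to 13 counts per library and did not pass the filter on low counts. Of the 4 tested, 3 were lower in shNUP153 at an adjusted p under 0.05, as were 17.4% of all tested genes. KRT5 went from 24.4 ± 1.01 to 15.3 ± 2.13 CPM (SD, n = 2, adjusted p = 7.4e-07), SOX2 from 48.8 ± 0.796 to 38.5 ± 1.26 CPM (adjusted p = 0.00013) and KRT6A from 37.5 ± 0.264 to 32.1 ± 3.72 CPM (adjusted p = 0.0212, lost in 4 alternatives at 0.063 to 0.461). TP63, the most abundant, was at 248 ± 3.14 and 235 ± 4.99 CPM and did not pass (adjusted p = 0.192). Summed, the list ran from 358 to 360 CPM in shControl and from 312 to 330 CPM in shNUP153. Among 7 markers of other cell types, PTPRC, CD68, PECAM1 and HNF4A had 0 to 5 counts per library. COL3A1 had 7 to 12, and the intestinal factor gene CDX2 was present at 17.2 to 20.2 CPM. The endothelial gene VWF was low and higher in shNUP153 (0.902 and 1.43 CPM in shControl, 2.24 and 1.77 CPM in shNUP153, adjusted p = 0.0431), a call lost in 4 alternatives (adjusted p = 0.0706 to 0.333). The sum of these 7, mostly CDX2, was 19.5 to 21.6 CPM in shControl and 20.2 to 22.1 CPM in shNUP153. The part of either marker list in the results below was not tested.

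Some SR genes passed as lower after NUP153 knockdown and others did not pass. Whether the members differ from one another was not tested. SRSF1, SRSF2 and SRSF3 fell by 17.1% to 22.8%, SRSF6 fell by 9.20%, SRSF7 fell by 10.97%, and SRSF4, SRSF5, SRSF11, TRA2A and TRA2B did not pass the test. All 10 genes passed the filter on low counts. By edgeR's quasi-likelihood test with adjustment over all 16817 tested genes and a threshold of 0.05, 5 of 10 were lower and 0 were higher in shNUP153. Over all tested genes 32.4% passed in either direction, 17.4% lower and 15% higher. At an unadjusted p under 0.05, TRA2B was lower too and the count of higher members was still 0, as it was with DESeq2 and limma-voom. The median log2 fold change of the 10 genes was −0.12, beside 0.01 over all tested genes.

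The SR genes are abundant, and abundant genes leaned downward in these libraries. Of the 10, 8 lay in the most abundant 10% of tested genes by mean CPM, and TRA2A (percentile 80.3) and SRSF4 (percentile 77.9) lay below. Within those 1682 top genes, 42.4% were called lower and 274 genes were called higher, with a median log2 fold change of −0.08. The 5 called SR genes are among those 8. Whether SR genes fell more than other genes of like abundance was not tested.

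**Figure D1:**
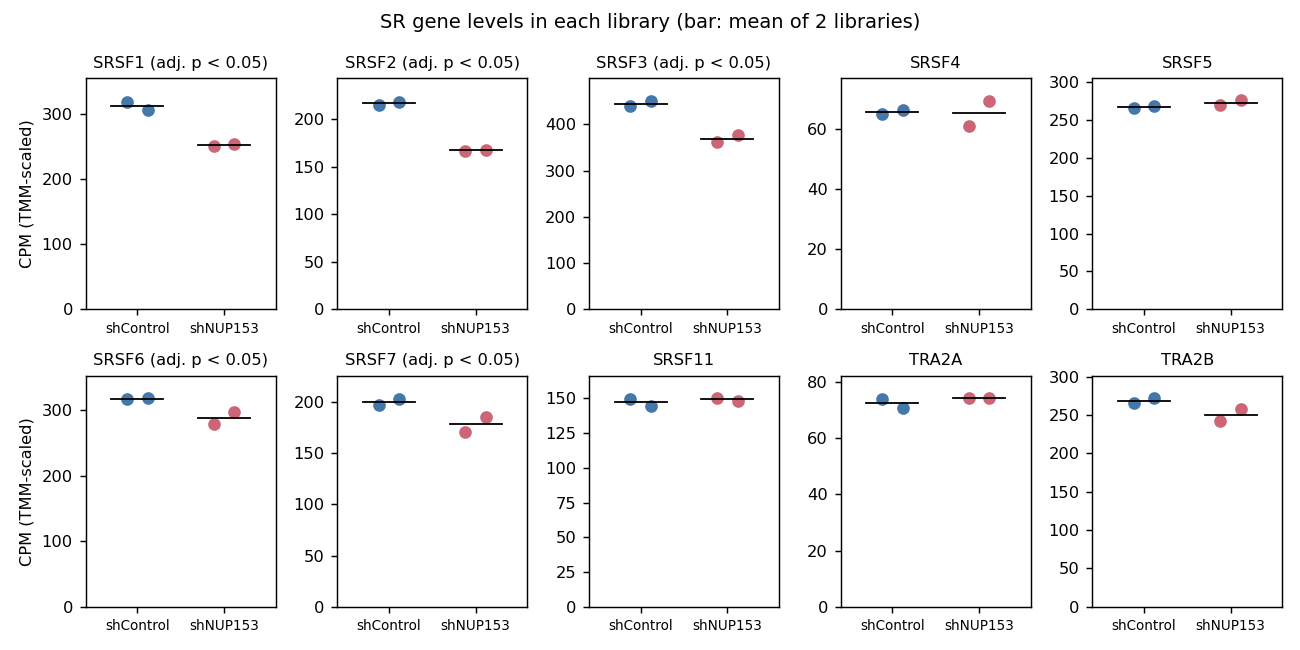
TMM-scaled CPM of each SR gene (vertical axes, each starting at 0) in the 2 shControl (blue) and 2 shNUP153 (red) libraries, with a bar at each group mean. In SRSF1, SRSF2, SRSF3, SRSF6 and SRSF7 both shNUP153 points lie below both shControl points, while in SRSF4 and SRSF11 the groups overlap.

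The upstream sequences of 3 genes are shown because SRSF1 and SRSF3 fell together whereas SRSF5, also in the most abundant 10%, did not pass. Each line gives the 250 bases before the RefSeq gene start, 5′ to 3′ on the gene's strand, in the GRCh38.p14 build: SRSF1 at chr17:58007247-58007496 (minus strand), SRSF3 at chr6:36594112-36594361 (plus strand) and SRSF5 at chr14:69766892-69767141 (plus strand). Capitals mark TGACGT, the core of a cAMP response element, on either strand.
SRSF1: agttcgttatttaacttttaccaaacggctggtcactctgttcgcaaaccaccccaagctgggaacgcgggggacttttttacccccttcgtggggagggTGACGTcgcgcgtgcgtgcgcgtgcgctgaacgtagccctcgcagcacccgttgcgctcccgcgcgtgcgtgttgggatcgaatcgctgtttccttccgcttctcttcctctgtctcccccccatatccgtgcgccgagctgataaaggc
SRSF3: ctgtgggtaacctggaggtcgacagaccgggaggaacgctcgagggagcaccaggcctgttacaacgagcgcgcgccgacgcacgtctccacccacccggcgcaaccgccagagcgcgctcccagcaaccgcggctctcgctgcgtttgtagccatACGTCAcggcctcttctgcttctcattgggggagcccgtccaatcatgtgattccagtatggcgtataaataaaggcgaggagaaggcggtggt
SRSF5: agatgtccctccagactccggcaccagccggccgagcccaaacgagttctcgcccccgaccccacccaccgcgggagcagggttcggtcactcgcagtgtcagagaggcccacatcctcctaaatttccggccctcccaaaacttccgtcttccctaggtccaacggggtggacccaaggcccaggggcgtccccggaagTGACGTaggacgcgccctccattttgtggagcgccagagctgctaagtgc

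Promoter entries were matched for 8 of the 10 genes, all but SRSF2 and TRA2A. TGACGT was found upstream of 4 of them, SRSF1, SRSF3, SRSF5 and TRA2B, and in 7.10% of 35116 promoters of the same length. The letters are thus present both in genes that fell (SRSF1, SRSF3) and in genes that did not pass (SRSF5, TRA2B). They were likewise absent both from genes that fell (SRSF6, SRSF7) and from genes that did not pass (SRSF4, SRSF11). A further 6 motifs were searched on both strands, some of which can overlap each other. The GC box GGGCGG was found in SRSF4, SRSF6, SRSF7 and TRA2B (42.6% of all promoters), and TATAAA in SRSF3, SRSF7 and SRSF11 (10.7%), counting either entry where a gene has more than 1. CCAAT was found in SRSF3 (32.0%), and the ETS core CCGGAAG in SRSF4 and SRSF5 (8.52%). The E-box CACGTG (6.34%) and the E2F letters TTTNGCGC (1.51%) were in none of the 8. These matches are descriptions of letters and not of binding.

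SRSF2, a speckle-resident SR protein that promotes inclusion of exons with its enhancer motifs, had the largest fold change of the 10. It measured 214.7 and 218.1 CPM in shControl and 166.6 and 167.7 CPM in shNUP153. The groups were far apart relative to their spread (216 ± 2.40 and 167 ± 0.807, SD, n = 2 each). Its log2 fold change was −0.37 (SE 0.05, adjusted p = 9.41e-08). Exons of SRSF2 overlap those of MFSD11 on the opposite strand by 1106 bp, and no source used here says whether the counting used strand. MFSD11 measured 21.3 ± 0.884 CPM in shControl and 19.4 ± 1.16 CPM in shNUP153 (adjusted p = 0.251).

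SRSF1, the founding member of the family and a shuttling splicing activator, measured 319.1 and 306 CPM in shControl. In the shNUP153 libraries it was at 250.6 and 254.5 CPM, below both controls. The fold change was −0.31 on the log2 scale (SE 0.05, adjusted p = 1.73e-06), with a 95% interval of the difference from −24.2% to −13.8%. Exons of SRSF1 overlap those of AC015813.2 on the same strand by 1890 bp, a gene with 0 counts in every library. They also overlap those of AC015813.5 on the opposite strand by 440 bp. SRSF3, the smallest of the SR proteins and an adaptor for NXF1, was the most counted of the 10. It measured 440.6 and 449.6 CPM in shControl and 360.8 and 377.1 CPM in shNUP153, again without overlap (log2 fold change −0.27, SE 0.04, adjusted p = 8.2e-06). These 3 genes passed under all 13 alternative settings, with log2 fold changes from −0.39 to −0.21.

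SRSF7, which carries a zinc knuckle beside its RNA recognition motif and also acts as an export adaptor, measured 197.4 and 203.1 CPM in shControl. It was at 171 and 185.7 CPM in shNUP153, so its knockdown libraries were lower and farther apart than the controls (log2 fold change −0.17, SE 0.05, adjusted p = 0.00842). SRSF6, a member with a pair of RNA recognition motifs, measured 317.7 and 318.2 CPM in shControl and 279.6 and 297.8 CPM in shNUP153 (log2 fold change −0.14, SE 0.05, adjusted p = 0.018). Neither gene passed with total-count scaling (adjusted p = 0.0994 for SRSF7 and 0.212 for SRSF6), with upper quartile scaling (0.0506 and 0.108) or without shNUP153 replicate 1 (0.285 and 0.319), which leaves 3 of 10 lower in each case. SRSF6 also did not pass without a dispersion trend (adjusted p = 0.0768). Over all 16817 tested genes, those called lower went from 2927 with TMM to 2114 with total-count scaling and 2338 with upper quartile scaling.

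TRA2B, an SR-like activator with serine-arginine domains at both ends, did not pass in the main analysis. It measured 265.7 and 271.8 CPM in shControl and 242 and 258.3 CPM in shNUP153, without overlap. The log2 fold change was −0.10 (SE 0.05, unadjusted p = 0.0333, adjusted p = 0.0885), and it passed in 1 of 13 alternatives, without shControl replicate 1 (adjusted p = 0.0364). It was at −0.04 with total-count scaling (adjusted p = 0.547) and at −0.06 with upper quartile scaling (0.344) and without shNUP153 replicate 1 (0.573). Its paralog TRA2A measured 74 and 70.7 CPM in shControl and 74.4 and 74.1 CPM in shNUP153. These values nearly coincide, and the 95% interval of the difference ran from −5.33% to 11.3% (adjusted p = 0.665). Whether the paralogs differ in response was not tested.

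SRSF5, a member with a pair of RNA recognition motifs, measured 265.9 and 269.2 CPM in shControl and 269.9 and 277.1 CPM in shNUP153. The knockdown libraries were just above the controls, and the interval of the difference, −4.13% to 8.95%, left out decreases of the size seen for SRSF1, SRSF2 or SRSF3 (adjusted p = 0.647). SRSF11, an SR protein found with the U2 auxiliary factor, measured 149.3 and 144.9 CPM in shControl and 150.7 and 148.3 CPM in shNUP153, with overlapping groups (interval −5.15% to 8.99%, adjusted p = 0.757). SRSF4, among the longest SR proteins and the least counted of the 10, measured 64.8 and 66.1 CPM in shControl and 60.8 and 69.3 CPM in shNUP153. The shNUP153 libraries of SRSF4 lie on both sides of the controls (interval −9.13% to 8.53%, adjusted p = 0.926). By CPM, the groups did not overlap for 8 of the 10 genes, and the same held for 64.4% of all tested genes.

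**Figure D2:**
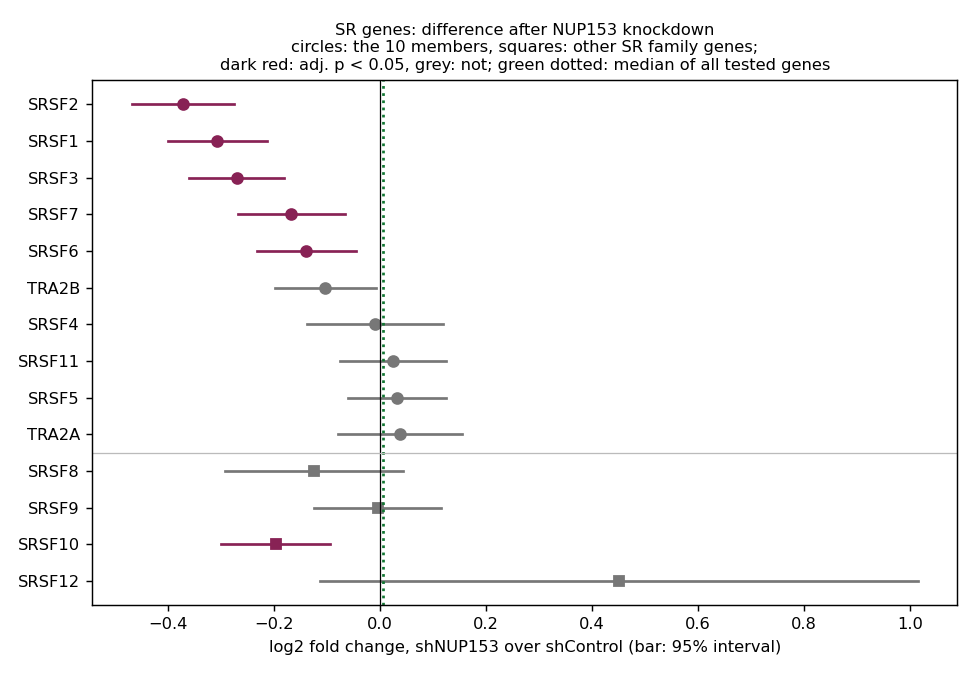
Log2 fold change (horizontal axis, shNUP153 over shControl) with its 95% interval for the 10 SR genes (circles, ordered by fold change) and 4 other SR family genes (squares). Dark red marks an adjusted p under 0.05, and the intervals of SRSF4, SRSF5, SRSF11 and TRA2A lie across 0 while those of SRSF1, SRSF2 and SRSF3 end at −0.18 or lower.

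The SR genes also differed in the part of the family's counts that each took. Together the 10 genes summed to 2313 ± 5.93 CPM in shControl and 2068 ± 59.0 CPM in shNUP153 (SD, n = 2 each), a difference of −10.6%. As a part of all counts, without TMM, the difference was −6.61% (0.227% and 0.226% in shControl, 0.208% and 0.214% in shNUP153). As shares of the counts of the 10 genes, which do not depend on library scaling, SRSF3 went from 19.1% and 19.4% to 17.8% and 17.9%. The share of SRSF1 went from 13.8% and 13.2% to 12.4% and 12.1%, and that of SRSF2 from 9.30% and 9.41% to 8.22% and 7.95%. All of these shares were lower in both shNUP153 libraries than in either control. SRSF5 went the other way, from 11.5% and 11.6% to 13.3% and 13.1%, and SRSF11 from 6.47% and 6.25% to 7.44% and 7.03%. Also higher in both shNUP153 libraries than in either control were the shares of SRSF4, TRA2A, TRA2B and, narrowly, SRSF6 (13.76% and 13.73% to 13.8% and 14.12%). The share of SRSF7 overlapped between groups (8.55% and 8.76% against 8.44% and 8.80%). With 2 libraries a group, no exact permutation test of a share can pass, and none was made. A share that rises here does not show a higher level, since the shares of the 10 genes sum to the whole in each library.

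Levels were compared between genes as CPM per kb of exon annotated in GENCODE release 29, an annotation that may differ from the one used for the counts. In shControl SRSF1 stood highest at 93.6 ± 2.77 CPM per kb (SD, n = 2), followed by SRSF2 (71.7 ± 0.792), SRSF6 (69.2 ± 0.0778) and SRSF3 (62.5 ± 0.891). SRSF5 (49.95 ± 0.431) and SRSF7 (49.5 ± 0.990) came next and overlapped. TRA2B (22.8 ± 0.361), TRA2A (20.6 ± 0.665), SRSF11 (17.4 ± 0.368) and SRSF4 (7.36 ± 0.107) were lowest. In shNUP153 SRSF6 (62.9 ± 2.80) stood above SRSF2 (55.4 ± 0.269), the reverse of the order in shControl. SRSF3 (51.8 ± 1.61) then overlapped SRSF5 (51.1 ± 0.940), and TRA2B (21.3 ± 0.976) overlapped TRA2A (21.1 ± 0.0566). All other neighbours in either order were apart in the libraries measured. The length counts every annotated exon once, including retained introns, so a gene with long alternative exons is placed lower.

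**Figure D3:**
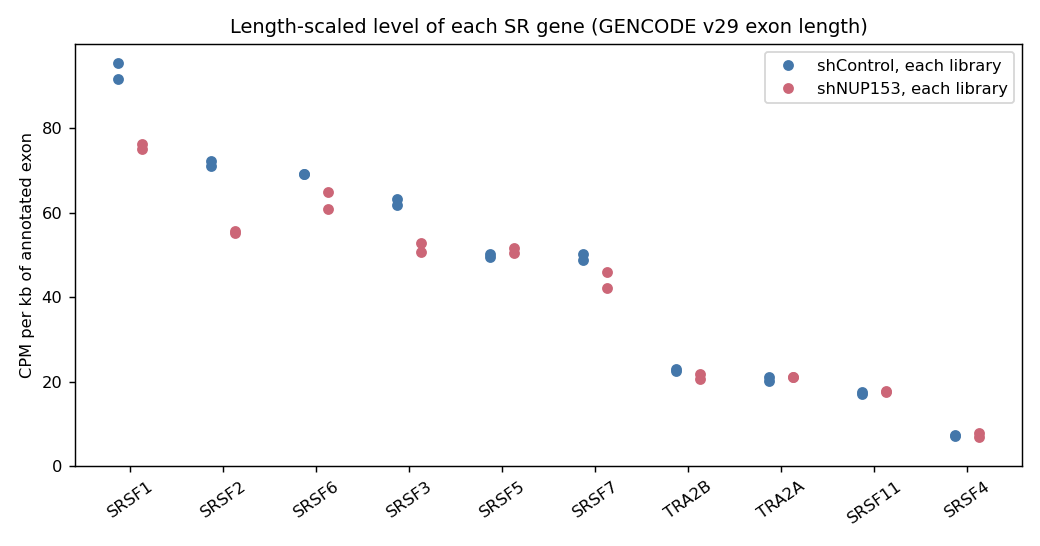
Length-scaled level (vertical axis, CPM per kb of annotated exon) of the 10 SR genes, ordered by their shControl mean, with 1 point per library (blue shControl, red shNUP153). SRSF1 is highest and SRSF4 lowest in both groups, and the red points of SRSF2 sit below those of SRSF6.

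The counts do not resolve transcripts. GENCODE release 29 annotates at least 1 transcript of the nonsense-mediated decay type for 10 of the 10 SR genes, against 35.6% of 19951 protein-coding genes. SRSF7 has 6 such transcripts of 12, SRSF1 has 3 of 9, and SRSF5, SRSF6, TRA2A and TRA2B have 1 each. Retained-intron transcripts are annotated for 8 of the 10, all but SRSF6 and SRSF11, against 46.2% of protein-coding genes. How poison exon and productive transcripts share the counts was not tested. Reads of close paralogs could also have been split by the counting.

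Of the 4 other SR family genes, SRSF10, SRSF8, SRSF9 and SRSF12, 1 was lower and 0 higher (median log2 fold change −0.06). That is 25% called, beside 32.4% of all tested genes. SRSF10, an SR protein that represses splicing when dephosphorylated after heat shock, fell from 133 and 132.9 CPM to 115.7 and 116.2 CPM (log2 fold change −0.20, SE 0.05, adjusted p = 0.00254). Its call was lost without shNUP153 replicate 1 (adjusted p = 0.0641) or shNUP153 replicate 2 (0.054). SRSF9 measured 109 and 129.2 CPM in shControl and 117 and 120.8 CPM in shNUP153 (adjusted p = 0.965), and its exons overlap those of GATC on the opposite strand by 1729 bp. SRSF8 (27.3 ± 0.906 against 25.0 ± 1.79 CPM, adjusted p = 0.264) and the barely detected SRSF12 (1.36 ± 0.142 against 1.87 ± 0.0325 CPM, adjusted p = 0.227) did not pass.

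Of 14 genes for the kinases, phosphatases and importer that act on SR proteins, 1 was higher, 1 was lower and 12 did not pass (median 0.01), so 14.3% were called beside 32.4% of all tested genes. The counts depend on scaling, with 5 higher and 0 lower under total-count scaling and 4 and 0 under upper quartile scaling. Over all 16817 tested genes, those called higher went from 2521 with TMM to 3573 and 3177 under these scalings. DYRK1A, a nuclear kinase that phosphorylates SR proteins, rose from 38.9 and 40.1 CPM to 47.7 and 49.3 CPM (log2 fold change 0.30, SE 0.07, adjusted p = 0.00074). PPP1CC, a catalytic subunit of protein phosphatase 1, fell from 277 ± 9.16 to 253 ± 12.8 CPM (adjusted p = 0.0349), a call lost in 8 of 13 alternatives (adjusted p = 0.0535 to 0.435). The kinase genes CLK1 (26.2 ± 2.36 against 30.3 ± 2.82 CPM, adjusted p = 0.0523) and CLK3 (28.6 ± 1.48 against 32.4 ± 0.752 CPM, adjusted p = 0.0666) did not pass in the main analysis. CLK1 did pass, as higher, in 5 of 13 alternatives, among them the replicate block (adjusted p = 0.0408) and total-count scaling (0.00846), and CLK3 in 4 (0.0121 to 0.0325). The importer gene TNPO3 was at 31.4 ± 0.677 and 31.5 ± 0.700 CPM (adjusted p = 0.982).

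Among 32 genes of SR-related and speckle proteins, 4 were lower, 3 were higher and 25 did not pass (median −0.02), which is 21.9% called beside 32.4% of all tested genes. With total-count scaling the balance turned to 2 lower and 7 higher (median 0.04), and with upper quartile scaling to 2 lower and 6 higher (median 0.02). The balance over all tested genes turned too, from 2927 lower and 2521 higher with TMM. It was 2114 lower and 3573 higher with total-count scaling, and 2338 and 3177 with upper quartile scaling. Without shNUP153 replicate 2 the median of the 32 genes was −0.05. RBM23, an RNA-binding protein with a serine-arginine domain, fell from 97.2 and 95.1 CPM to 72.5 and 72.1 CPM (log2 fold change −0.41, SE 0.06, adjusted p = 2.88e-07). THRAP3, a speckle-associated splicing factor, fell from 149 ± 2.32 to 129 ± 2.70 CPM (adjusted p = 0.00123, and 0.066 without shNUP153 replicate 2). The other two lower genes, U2AF2 (adjusted p = 0.0337), the large subunit of the U2 auxiliary factor, and BCLAF1 (0.0491), each lost the call in 8 of 13 alternatives (adjusted p = 0.0698 to 0.326 and 0.0989 to 0.365). The 3 that rose were the cyclin L genes CCNL1 (130 ± 1.34 to 150 ± 3.63 CPM, adjusted p = 0.00113) and CCNL2 (67.1 ± 1.29 to 75.5 ± 1.05 CPM, adjusted p = 0.0224), whose proteins carry serine-arginine domains, and SCAF1 (175 ± 10.1 to 194 ± 0.746 CPM, adjusted p = 0.0152). Their calls were lost in 1, 6 and 4 of 13 alternatives (adjusted p = 0.0712 for CCNL1, 0.052 to 0.207 for CCNL2 and 0.062 to 0.168 for SCAF1).

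In the list of 15 nonsense-mediated decay and exon junction genes, 2 were higher, 2 were lower and 11 did not pass (median −0.04), so 26.7% were called beside 32.4% of all tested genes. With total-count scaling 3 were higher and 1 was lower (median 0.02), beside 3573 higher and 2114 lower over all tested genes. Without shNUP153 replicate 2 the median of the 15 genes was −0.01. EIF4A3, the helicase that anchors the exon junction complex, fell from 240 ± 13.5 to 207 ± 1.73 CPM (log2 fold change −0.22, SE 0.05, adjusted p = 0.00054). RBM8A, another core subunit of that complex, fell from 62.9 ± 1.81 to 56.4 ± 0.0979 CPM (adjusted p = 0.0457), a call lost in 10 of 13 alternatives, the replicate block among them (adjusted p = 0.0549 to 0.27). UPF3B, which bridges the exon junction complex to decay factors, rose from 30.6 ± 2.23 to 37.7 ± 1.72 CPM (adjusted p = 0.00199, and 0.0882 without shNUP153 replicate 2). SMG8, a regulator of the SMG1 kinase, rose from 22.3 ± 0.460 to 25.9 ± 0.990 CPM (adjusted p = 0.0428), a call lost in 6 of 13 alternatives (adjusted p = 0.0519 to 0.311).

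Genes of the hnRNP proteins, which often oppose SR proteins at exons, were lower in 17 of 22 cases and higher in 0 (median −0.19). The called share was 77.3%, beside 32.4% of all tested genes in either direction and 17.4% lower. Without shNUP153 replicate 1 only 10 of these 17 kept the call, and with total-count scaling 13 did, where HNRNPH1 was called higher (adjusted p = 0.0032). HNRNPH1 was called higher in 4 of 13 alternatives, among them upper quartile scaling and a filter at a mean of 5 CPM. HNRNPC fell 1.23-fold (745 ± 16.4 to 606 ± 12.3 CPM), HNRNPF 1.23-fold (536 ± 1.44 to 437 ± 1.75 CPM), PTBP1 1.22-fold (745 ± 34.9 to 613 ± 8.84 CPM) and HNRNPA1 1.19-fold (1473 ± 21.5 to 1238 ± 48.7 CPM). Their adjusted p ranged from 7.47e-07 for HNRNPC to 8.76e-06 for HNRNPA1. HNRNPA1 and HNRNPC have near-identical copies in the genome, so their counts are uncertain where reads were split. Most of the 22 hnRNP genes lay in the most abundant 10% of tested genes, where 42.4% were called lower. HNRNPH2 (percentile 85.8), HNRNPUL2 (81.6) and HNRNPLL (73.7) lay below it.

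**Figure D4:**
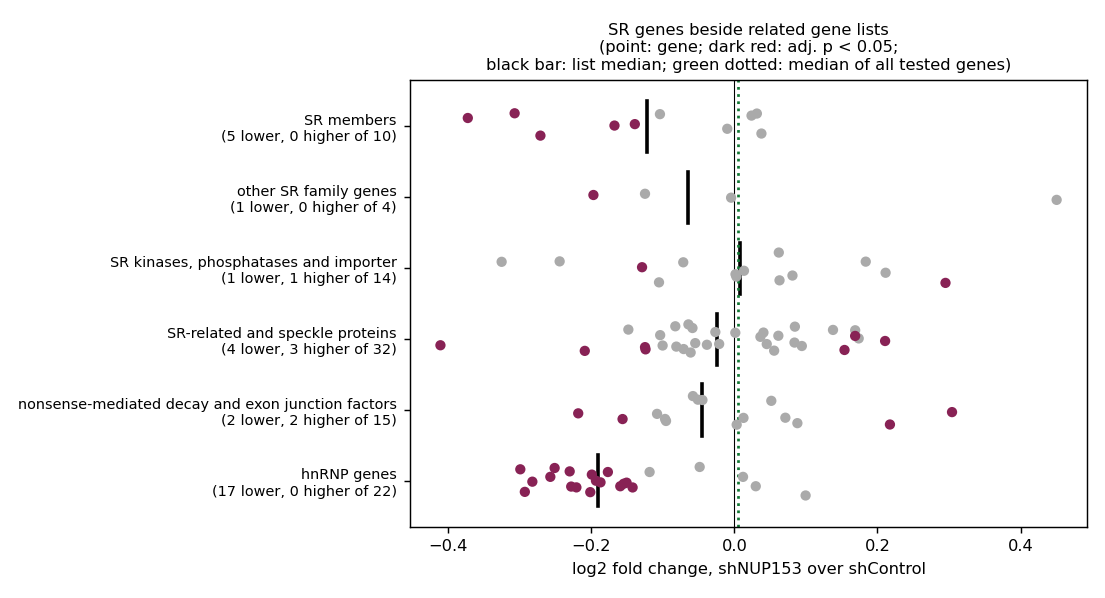
Log2 fold change (horizontal axis) of each tested gene in the SR list and 5 related lists (rows), with list medians as black bars and genes at an adjusted p under 0.05 in dark red. The SR genes spread from −0.37 to 0.04, and dark red points on both sides of 0 appear for the kinase, SR-related and decay lists.

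As a description of likeness, each SR gene was paired with the listed gene whose log2 CPM, centred on its own mean over the 4 libraries, was nearest by root mean square distance. SRSF1 was nearest to HNRNPC (0.00962) and SRSF3 to HNRNPA1 (0.0237), while SRSF6 (0.0155) and SRSF7 (0.0193) were both nearest to HNRNPH2. SRSF2 was nearest to SOX2 (0.0257). SRSF11 (0.0106) lay next to PPP1CB, SRSF5 (0.0168) next to TNPO3, and SRSF4 (0.0462) next to SRRM1. TRA2A was nearest to SRSF11 (0.0121) and TRA2B to SRSF6 (0.0207). With 4 libraries in 2 groups, these distances mostly restate how far each gene moved.

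**Figure D5:**
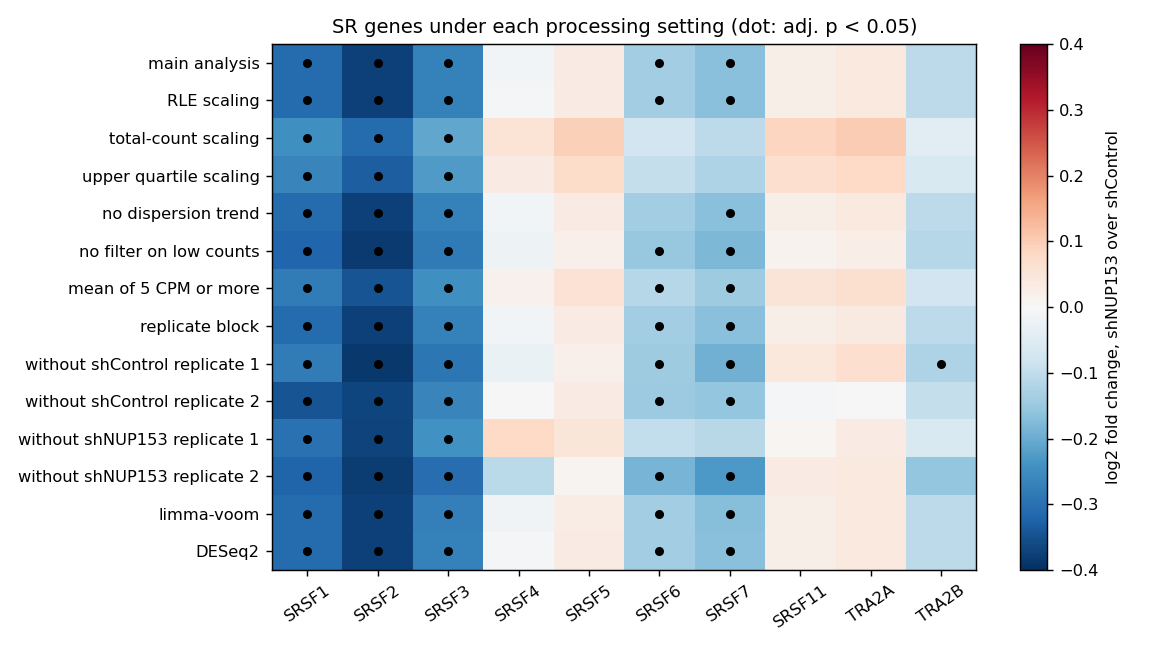
Log2 fold change (colour) of the 10 SR genes (columns) in the main analysis and 13 alternative settings (rows), with a dot where the adjusted p was under 0.05. SRSF1, SRSF2 and SRSF3 carry a dot in every row, SRSF6 and SRSF7 lose theirs under total-count and upper quartile scaling and without shNUP153 replicate 1, and TRA2B has 1 dot.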

How the data were processed

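The deposited table holds whole-number counts per gene for 4 libraries. Its name says FPKM, but the deposited values are whole numbers with different totals per library and were used as raw counts. The submitters' processing notes name kallisto, DESeq2, Bowtie2, deepTools and hg19, with no roles. No source used here gives the counting annotation or strand setting. The authors' log2 ratio of mean counts carries no library-size correction and entered no test.

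Genes kept by filterByExpr (minimum count 10, minimum total 15; 16817 of 56657 rows) were scaled by TMM and tested with edgeR 4.0.16 in R 4.3.3 (quasi-likelihood, two-sided, Benjamini-Hochberg over all tested genes). With 2 residual degrees of freedom, the spread was pooled across genes. SE was derived from the F statistic. Replicates differed beyond sampling noise, with a chi-square per gene of 3.57 in shControl and 3.09 in shNUP153. The procedure was tested on simulated counts. DESeq2 1.42.0 and limma 3.58.1 were among 13 alternatives.

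Members, gene lists and motifs were chosen with earlier results of these data known. Named from each related list were the 4 genes with the smallest p, up to 3 called against the list's majority, and all 4 other SR family genes. TNPO3, other nearest genes, MFSD11, GATC, AC015813.2 and AC015813.5 were named by likeness or overlap. Outside these rules, U2AF2 and BCLAF1 were named as the remaining lower genes of their list. HNRNPH1 was named for its calls as higher in alternatives, and HNRNPUL2 and HNRNPLL for their abundance. Exon lengths and transcript types come from GENCODE release 29 and upstream sequences from RefSeq.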

Additional observations from a re-analysis of the deposited data

How the results depend on the processing

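In each of the 13 alternatives the median log2 fold change of the SR genes stayed below 0 and no SR gene was called higher. The number called lower was 3 of 10 with total-count scaling and 3 with upper quartile scaling, and ran from 3 to 6 when 1 library was left out. The 6 came without shControl replicate 1 and the 3 without shNUP153 replicate 1. The median was −0.0585 with total-count scaling and ran from −0.17 (without shNUP153 replicate 2) to −0.0792 (without shNUP153 replicate 1). Of all calls, 46.3% were higher with TMM, 62.8% with total-count scaling and 57.6% with upper quartile scaling, while the median of all tested genes shifted to 0.07 and 0.05. Genes called lower numbered 2927, 2114 and 2338 of 16817 in the same order. The causes were not tested. Over all genes, the 5448 calls became 3072 without shNUP153 replicate 1, 3342 without shNUP153 replicate 2 and 3556 with DESeq2. With the replicate number as a block, 5 SR genes were lower and 5465 genes were called in all. Same-numbered libraries did not deviate together (r = −0.00365 across genes), so the numbers were not taken as pairs. The authors' deposited table gives log2 ratios of −0.28 for SRSF1, −0.35 for SRSF2 and −0.25 for SRSF3, and 0.05 for SRSF5. Depth did not limit detection of any SR gene, but 2 libraries a group limit the precision.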

Other observations

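The shNUP153 libraries differ in how much NUP153 RNA remained, 67.9 CPM in replicate 1 and 81.9 CPM in replicate 2. Of the 10 SR genes, 8 measured lower in replicate 1 than in replicate 2, all but SRSF11 and TRA2A, as did 50.1% of all tested genes and 54.0% of the most abundant 10%. Between the shControl libraries, 7 of the 10 measured lower in replicate 1, as did 50.3% of all tested genes and 56.4% of the most abundant 10%. A relation to the NUP153 level was not tested, since a correlation over 4 libraries in 2 groups cannot be separated from the group difference.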
